A study of Mus musculus with 12 samples.

Results

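MyD88-null and C57BL/6 peritoneal macrophages were compared at baseline, after cholesterol loading and without apolipoprotein A-I (apoA-I), to ask which transcripts differed between the genotypes before any apoA-I was added. The comparison used the arrays titled as controls, 3 of MyD88-null cells and 3 of C57BL/6 cells, which are 6 of the 12 arrays of the series. The donors were female mice, 10 weeks old, of C57BL/6 (MyD88 +/+ in the series' design) or MyD88-/- genotype. Macrophages were collected from the abdominal cavity 96 h after an injection of thioglycollate, an irritant that draws macrophages there, and were loaded overnight with cholesterol at 10 µg/ml. Both genotypes then received medium with polymyxin B at 25 µg/ml, an antibiotic that binds bacterial lipopolysaccharide, and the control cells were kept for 2 h without apoA-I. The other 6 arrays, of cells given apoA-I at 10 µg/ml for 2 h, served to estimate the spread and to show the genotype difference under treatment. RNA (500 ng of total RNA per sample) was read on one-colour Agilent arrays with the dye Cy3.

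MyD88 is the cytoplasmic adaptor that joins activated Toll-like receptors, and receptors of the interleukin-1 family, to IRAK kinases and TRAF6. That path releases the transcription factor NF-kappaB from its IkappaB inhibitors and starts transcription of cytokines, chemokines and the inhibitors themselves. Toll-like receptor 3, and part of the signal of Toll-like receptor 4, instead use the adaptor TRIF, which leads to type I interferon. In macrophages loaded with cholesterol, these receptors and the lipid-handling nuclear receptors act side by side.

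A value called a level here is the log2 of the processed signal minus the log2 of that array's 75th percentile, so that 0 is the brightness of the 75th percentile probe of the array. Levels of different probes were not compared with each other, except in sums over marker lists and where a gene is called bright. A difference is always MyD88-null minus C57BL/6 and is itself on the log2 scale. The labels do not tie samples to animals or pools, so p-values cover only sample-to-sample spread, and that spread may be technical. Nor do they give the backcross of the MyD88-/- mice. In RNA from whole wells, fewer cells of a type and less RNA per cell cannot be told apart.

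The 75th percentile of the processed signal ran from 326.4 to 1408 over the 6 control arrays, and 57.6% to 67.1% of 41174 probes were well above background. Replicate arrays correlated at 0.943 to 0.976 in C57BL/6 and at 0.93 to 0.97 in MyD88-null controls, across genes, which are not independent replicates. The replicate 1 pair shared a slide and a scan day, and the replicate 3 pair shared a scan day, so their differences are also values within a batch. MyD88-null replicate 2 was on another slide and scan day than C57BL/6 replicate 2. The description of C57BL/6 control replicate 2 includes the apoA-I step, against its title and source name, and that of MyD88-null apoA-I replicate 2 leaves it out. Titles and source names were followed, and the levels of Tnf and Il1b lay with them. Tnf read 2.93 on C57BL/6 control replicate 2, against 7.25 to 8.97 on C57BL/6 arrays with apoA-I. It read 5.69 on MyD88-null apoA-I replicate 2, against -1.64 to -0.37 on null controls. Il1b read -3.35 on the first of these samples, against 5.99 to 6.18 on C57BL/6 arrays with apoA-I. On the second it read 2.69, against -6.42 to -5.91 on null controls.

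The 10 macrophage markers, among them Adgre1, Csf1r, Cd68 and Lyz2, were above background on all 6 control arrays. Their summed signal, in units of each array's 75th percentile, was 655.7 to 919.9 in C57BL/6 cells and 672.7 to 789.2 in MyD88-null cells.

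Myd88 itself was lower in MyD88-null cells. Its single probe (mm7 chromosome 9, 119016408 to 119016467) read 3.48, 3.49 and 2.96 on C57BL/6 replicates 1, 2 and 3, and 1.87, 2.10 and 1.40 on MyD88-null replicates 1, 2 and 3. Every null array lay below every C57BL/6 array, by differences of -1.61, -1.39 and -1.56 within the pairs. The fitted difference was -1.52 (SE 0.144, 2.87-fold lower, adjusted p = 0.00397). The probe stayed well above background on all 3 null arrays, and whether it falls within the deleted exons is not known here, so it checks the genotype labels only in part.

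In all, 99 of 16744 genes (0.591%) had an adjusted p under 0.05, the threshold for a call, 88 of them lower in MyD88-null cells (0.526%) and 11 higher (0.0657%). At an unadjusted p under 0.05, 1316 genes (7.86%) were lower and 686 (4.1%) higher. All 99 had the same direction in each of the 3 pairs, which held for 18.5% of all genes in the lower and 24.7% in the higher direction. The groups did not overlap for 87 of the 99, against 10.3% of all genes, and this was so for 77 of the 88 lower genes (3.48% of all genes) and 10 of the 11 higher genes (6.84%). The 99 were chosen on the difference between these same arrays, so such agreement is largely built in and is a description. The median difference over all genes was 0.021. The nearest genes inside the threshold were Tnfaip3 (0.0432), Vcam1 (0.0454) and Slco2b1 (0.0484), and the nearest outside were Lrrc39 (0.0505), C1ra (0.052) and Tnfsf9 (0.0532), by adjusted p.

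**Figure D1:**
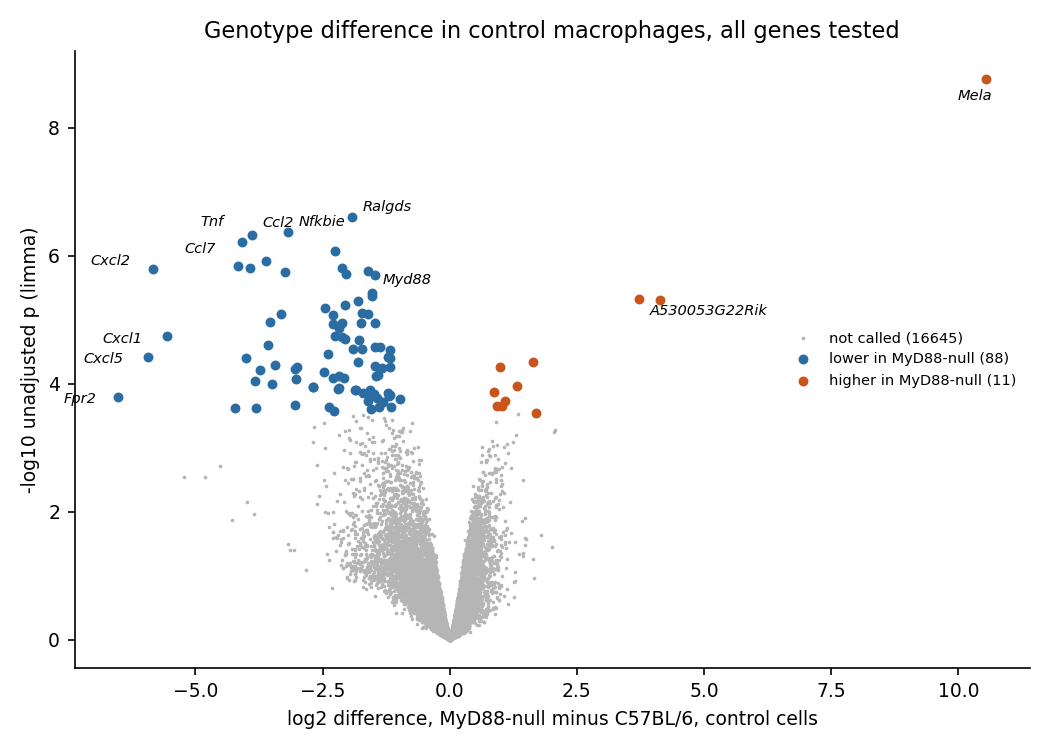
Each point is 1 of the 16744 genes tested, with the log2 difference between MyD88-null and C57BL/6 control cells on the horizontal axis and -log10 of limma's unadjusted p on the vertical axis. Of the 88 genes called lower (blue), those above background on no null array, such as Fpr2 and Cxcl2, are drawn at their fitted values, although only a bound is known, and of the 11 called higher (orange) Mela lies farthest to the right, at 10.55.

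The number of calls moved with the fit. It was 0 when limma was fitted to the 6 control arrays alone with the same block (1858 genes at an unadjusted p under 0.05), 16 without the replicate number as a block, 22 with the scan day as the block and 2 with the slide as the block. It was 42 without C57BL/6 control replicate 1, 39 without C57BL/6 control replicate 3, 59 without MyD88-null control replicate 1, 52 without MyD88-null control replicate 2 and 65 without C57BL/6 apoA-I replicate 2. With both samples of conflicting description left out it was 9, and with their descriptions followed it was 1. All 99 genes kept their direction in each of these fits, and 31 of them passed in each of the 12 leave-one-out fits, which drop 1 array each.

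NF-kappaB pathway genes made up the list with the largest share of calls. Of its 20 members, all measured, 10 were lower in MyD88-null cells and none higher, against 0.526% of all genes called lower. The median difference of the list was -1.15, and 18 of 20 members lay below 0, against 47.4% of all genes. The list was chosen with earlier results of these data known, so its share is a description. The count of lower members was 5 without C57BL/6 control replicate 1 or MyD88-null control replicate 2, and 4 without C57BL/6 control replicate 3.

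The inhibitors of NF-kappaB were lower in all 3 pairs. Nfkbie, which encodes IkappaB epsilon, read 3.45, 3.44 and 3.21 on C57BL/6 replicates 1, 2 and 3 and -0.20, 1.05 and -0.29 on MyD88-null replicates 1, 2 and 3. Null replicate 2 was the highest of its group and still more than 2 log2 units below the lowest C57BL/6 array. The difference was -3.18 (SE 0.231, 9.08-fold lower, adjusted p = 0.002). Nfkbia, the IkappaB alpha that holds NF-kappaB in the cytoplasm, read 6.48, 5.65 and 6.06 against 3.27, 3.95 and 3.54. Its groups did not overlap, and it differed by -2.48 (SE 0.341, adjusted p = 0.0185). That call was lost in 4 of the 12 leave-one-out fits, where adjusted p reached 0.115 once C57BL/6 control replicate 3 was dropped.

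Nfkbiz, the nuclear IkappaB zeta that serves as a co-activator of secondary response genes, differed by -3.54 (SE 0.384, adjusted p = 0.00637). Its levels were 1.67, 0.77 and 0.89 in C57BL/6 cells and -2.82, -1.92 and -2.54 in null cells. Tnip3, a partner of the deubiquitinase A20, differed by -2.11 (SE 0.246, adjusted p = 0.00894), and Tnfaip3, which encodes A20 itself, by -1.55 (SE 0.256, adjusted p = 0.0432). The atypical IkappaB Bcl3 differed by -1.90 (SE 0.233, adjusted p = 0.0114). The call of Tnfaip3 was lost in 10 of the 12 leave-one-out fits, where adjusted p reached 0.205 once C57BL/6 control replicate 1 was dropped. The calls of Bcl3 and Tnip3 were lost in 4 and 3 of these fits.

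Of the NF-kappaB subunits, those of the non-canonical arm were called and those of the canonical arm were not. Relb read 3.98, 4.25 and 3.80 in C57BL/6 cells and 2.42, 2.94 and 2.24 in null cells, a difference of -1.47 (SE 0.129, adjusted p = 0.00225) between groups that did not overlap. Nfkb2 differed by -1.21 (SE 0.155, adjusted p = 0.014). The values of Nfkb1 and Rela were -0.96 (adjusted p = 0.29) and -0.40 (adjusted p = 0.373). Whether the arms differed from each other was not tested. The IkappaB kinase subunits Ikbkb, Chuk and Ikbkg had values of 0.14, 0.23 and -0.14 (adjusted p 0.754, 0.712 and 0.824). Among targets in the list, the adhesion molecule Icam1 (4.31, 4.23 and 3.77 against 2.07, 2.60 and 2.22) differed by -1.80 (SE 0.178, adjusted p = 0.0043), and the survival adaptor Traf1 by -1.44 (SE 0.225, adjusted p = 0.0331). Traf1 and Nfkb2 did not pass in 10 and 5 leave-one-out fits.

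Promoters of these genes were searched for GGG, any 3 bases and TTCC, a compact form of the kappaB motif, on both strands, in RefSeq promoters of 300 bases, 250 before the start and the rest after it. In this window 7 of 16 measured NF-kappaB pathway genes with a promoter in the table (43.8%) and 5 of 13 measured chemokines (38.5%) held a match. Among them, 4 of the 8 called NF-kappaB pathway genes held a match, namely Nfkbia, Nfkbie, Nfkb2 and Tnfaip3, as did 3 of 4 called chemokines, namely Cxcl1, Cxcl2 and Cxcl10. All 88 lower genes included 10 with a match among 59 with a promoter (16.9%), and the higher genes 1 among 6 (16.7%), while 7.14% of 11163 tested genes and 6.31% of all 27025 genes with a promoter matched. A match is a description of letters, not a binding site. For 5 of these genes a stretch of 120 bases is shown 5′ to 3′ on the gene's strand, from RefSeq's GRCm38.p6, with matches in capitals, to show how closely matches sit in Cxcl1 and Cxcl2, where matches on the 2 strands also overlap.
Cxcl1, chr5:90891085-90891204, plus strand: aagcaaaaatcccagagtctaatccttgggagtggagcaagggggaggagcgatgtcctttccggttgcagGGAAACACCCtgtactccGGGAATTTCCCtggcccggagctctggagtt
Cxcl2, chr5:90903731-90903850, plus strand: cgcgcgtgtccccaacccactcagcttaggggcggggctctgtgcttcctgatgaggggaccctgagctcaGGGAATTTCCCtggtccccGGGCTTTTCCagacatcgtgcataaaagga
Nfkbia, chr12:55492648-55492767, minus strand: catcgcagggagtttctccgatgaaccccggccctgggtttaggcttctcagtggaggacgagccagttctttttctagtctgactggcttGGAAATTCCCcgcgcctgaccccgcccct
Nfkbie, chr17:45555504-45555623, plus strand: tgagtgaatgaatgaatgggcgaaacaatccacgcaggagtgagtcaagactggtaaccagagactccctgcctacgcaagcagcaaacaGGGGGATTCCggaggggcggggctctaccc
Nfkb2, chr19:46304617-46304736, plus strand: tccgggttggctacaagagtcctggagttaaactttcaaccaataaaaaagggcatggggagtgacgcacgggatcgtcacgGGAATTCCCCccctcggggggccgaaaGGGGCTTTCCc

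Chemokines, the secreted attractants of leukocytes, held some of the largest decreases. Of 25 listed, 21 were measured, and 7 of these were lower in MyD88-null cells and none higher, against 0.526% of all genes called lower. That share is the background for each count of lower list members below. This list, like the others, was chosen with earlier results of these data known. The median difference was -0.91. Without C57BL/6 control replicate 3 the count was 3.

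The neutrophil attractants Cxcl1, Cxcl2 and Cxcl5, neighbours on chromosome 5, were among the lowest. Cxcl1 (mm7 chromosome 5, 90882059 to 90882118) read 2.31, 1.43 and 1.61 on C57BL/6 replicates 1, 2 and 3 and -4.83, -1.90 and -4.61 on null replicates 1, 2 and 3. No null array came near the C57BL/6 arrays, although null replicate 2 lay well above the other null arrays. The difference was -5.57 (SE 0.647, 47.3-fold lower, adjusted p = 0.00894). Cxcl5 gave -5.93 (SE 0.76, adjusted p = 0.014) from levels of 1.71, 3.29 and 3.33 against -5.38, -0.15 and -3.93. Cxcl1 and Cxcl5 were each above background on 2 of 3 null arrays. Cxcl2 was not well above background on any null array, so only a bound can be given, at least 22.5-fold lower (adjusted p = 0.00225).

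The call of Cxcl1 was lost in 1 of the 12 leave-one-out fits, that without C57BL/6 control replicate 3 (adjusted p = 0.0616). That of Cxcl5 was lost in 3, where adjusted p reached 0.0891 once the same array was dropped. The related Cxcl3 had a value of -4.81 (adjusted p = 0.164).

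Ccl2, the main attractant of monocytes, read 4.31, 5.81 and 5.03 in C57BL/6 cells and 0.44, 2.70 and 0.37 in null cells. The difference was -3.88 (SE 0.285, 14.7-fold lower, adjusted p = 0.002). Its neighbour on chromosome 11, Ccl7, which acts on the same receptor, differed by -4.16 (SE 0.35, adjusted p = 0.00225), with levels of 0.38, 1.84 and 1.62 against -3.79, -1.40 and -3.45. In both genes the lowest C57BL/6 array was replicate 1 and the highest null array was replicate 2, and the groups did not overlap.

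Cxcl10, an interferon-inducible attractant of T cells, differed by -3.43 (SE 0.456, adjusted p = 0.0168), and did not pass in 4 of the 12 leave-one-out fits. Cxcl13, the B cell attractant, differed by -2.68 (SE 0.398, adjusted p = 0.0269), and did not pass in 7. The macrophage inflammatory proteins Ccl3, Ccl4 and Ccl5 had values of -1.11, -0.56 and -0.43 (adjusted p 0.0736, 0.584 and 0.774), and the platelet-type chemokine Pf4 had 0.08 (adjusted p = 0.849).

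**Figure D2:**
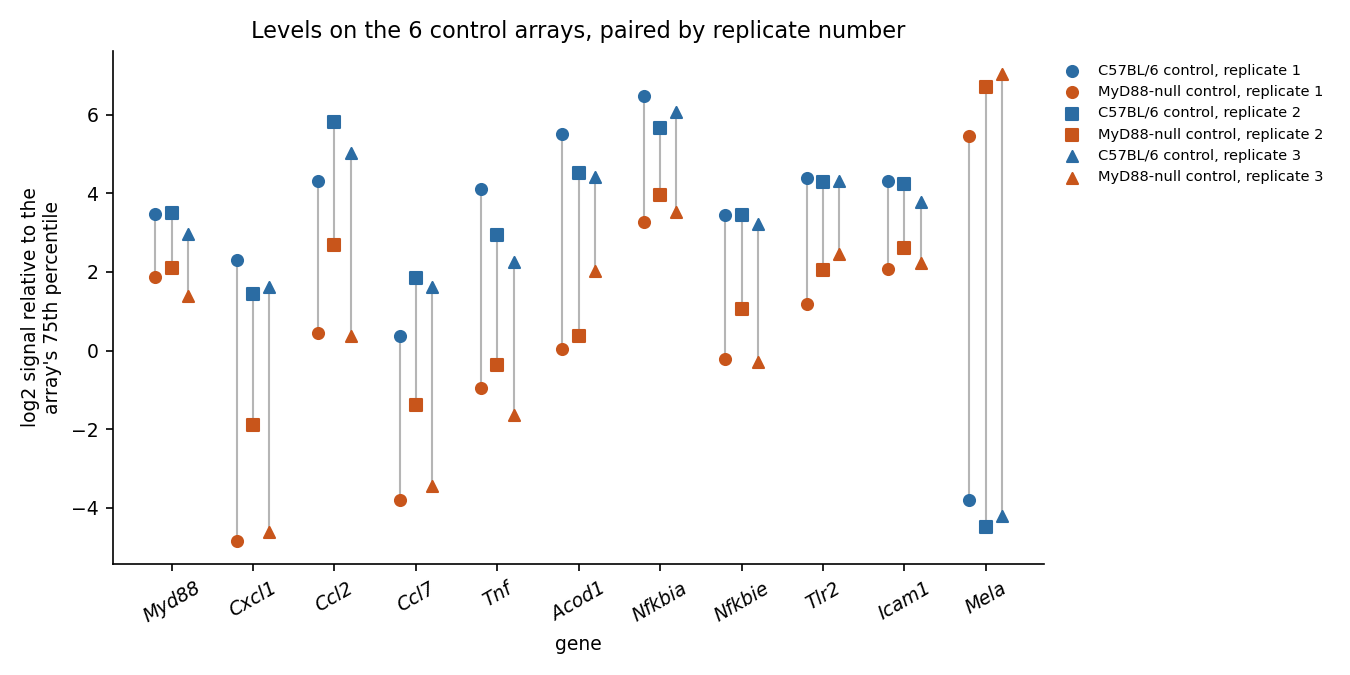
Levels (log2, with each array's 75th percentile at 0) of 11 genes on the 6 control arrays, C57BL/6 in blue and MyD88-null in orange, with a grey line joining arrays of the same replicate number. For the 10 genes from Myd88 to Icam1 every null array lies below every C57BL/6 array, and for Mela every null array lies above.

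Among other cytokines, 3 of the 18 measured of 20 listed were lower in MyD88-null cells and none higher, with a median difference of -0.56. Over all genes, 0.526% were called lower. Tnf, which encodes tumour necrosis factor, read 4.12, 2.93 and 2.25 on C57BL/6 replicates 1, 2 and 3 and -0.96, -0.37 and -1.64 on null replicates. The groups lay more than 2 log2 units apart, and the difference was -4.09 (SE 0.31, 17-fold lower, adjusted p = 0.00207). Csf3, the granulocyte growth factor G-CSF, was at least 4.87-fold lower (adjusted p = 0.00225), being above background on no null array. Pdgfb, a growth factor for mesenchymal cells, differed by -1.81 (SE 0.238, adjusted p = 0.0155), and did not pass in 3 leave-one-out fits. Il6 was not called, with a value of -1.27 (adjusted p = 0.332), and it was not well above background on any null control array.

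In the interleukin-1 family, 1 of 13 measured genes of 14 passed. Il1b, which encodes interleukin-1 beta, was above background on all 3 C57BL/6 arrays and on no null array and was at least 4.91-fold lower (adjusted p = 0.00225). Its levels in C57BL/6 cells were -1.90, -3.35 and -2.65. The list's median was -1.02, or -0.34 with the 2 genes known only by a bound set at it. The values of Il1a and of the receptor antagonist Il1rn were -1.02 (adjusted p = 0.161) and -0.20 (adjusted p = 0.762).

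Inflammatory effector genes, which encode enzymes, proteases and acute phase proteins, had 4 of 31 measured members of 32 lower and none higher, with a median of -0.68. The share called lower over all genes was 0.526%. Acod1, the enzyme that makes itaconate, read 5.51, 4.51 and 4.42 in C57BL/6 cells and 0.04, 0.37 and 2.02 in null cells. The difference was -4.003 (SE 0.516, adjusted p = 0.0141), and a second probe of the gene gave -4.18 (SE 0.576, adjusted p = 0.0213 among probes). The call of Acod1 was lost in 4 of the 12 leave-one-out fits, where adjusted p reached 0.0778 once MyD88-null control replicate 2 was dropped. Null replicate 3 was the highest null array here and still lay below every C57BL/6 array. Lcn2, the siderophore-binding lipocalin, was at least 2.36-fold lower (adjusted p = 0.0169). Serpinb2, the plasminogen activator inhibitor 2, differed by -3.81 (SE 0.628, adjusted p = 0.0423), and the gelatinase Mmp9 by -1.85 (SE 0.278, adjusted p = 0.028). Neither was stable, with 11 and 9 leave-one-out fits in which they did not pass. Lcn2 did not pass in 4. The inducible cyclooxygenase Ptgs2 had a value of -2.16 (adjusted p = 0.337).

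The guanylate-binding and immunity-related GTPases, interferon-gamma-inducible defenders against intracellular microbes, had 1 called of 14 measured of 16, with a median of -0.72, or -0.62 with the gene known only by a bound set at it. Gbp6 differed by -2.26 (SE 0.263, adjusted p = 0.00894). Of the inflammasome and caspase genes, 2 of 11 measured of 13 were lower, against 0.526% of all genes. These were Mefv, which encodes pyrin, at -2.29 (SE 0.325, adjusted p = 0.0215), and Casp4, the sensor caspase for cytosolic lipopolysaccharide, at -1.18 (SE 0.146, adjusted p = 0.0117). Of the cytokine signalling inhibitors, 1 of 13 measured of 14 was lower, Socs3, at -1.41 (SE 0.198, adjusted p = 0.0206). Of 24 immediate early genes measured of 25, 2 were lower, the stress response gene Ier3 at -1.58 (SE 0.237, adjusted p = 0.028) and the small Maf factor Maff at -1.48 (SE 0.197, adjusted p = 0.0169). Gbp6, Mefv, Casp4, Socs3, Ier3 and Maff did not pass in 2, 5, 5, 7, 9 and 4 leave-one-out fits.

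The receptors and adaptors upstream gave few calls. Among 15 Toll-like receptor genes and co-receptors measured of 18, only Tlr2, the receptor for bacterial lipopeptides, was called, and the list's median was 0.083. Tlr2 read 4.39, 4.30 and 4.31 on C57BL/6 arrays and 1.18, 2.04 and 2.45 on null arrays, with a difference of -2.45 (SE 0.249, 5.45-fold lower, adjusted p = 0.00504). The C57BL/6 arrays were nearly equal, and the whole spread lay among the null arrays. Tlr4 had a value of -0.01 (adjusted p = 0.985) and its co-receptor Cd14 one of -0.69 (adjusted p = 0.363). Of 17 MyD88 and TRIF adaptor genes measured of 18, only Myd88 was called, with a list median of 0.14. The kinases Irak1 and Irak4 had values of 0.06 (adjusted p = 0.879) and -0.01 (adjusted p = 0.993), and Ticam1, which encodes TRIF, had 0.40 (adjusted p = 0.417).

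Type I interferon-stimulated genes gave no call. Of 41 listed, 35 were measured and limma called none. At an unadjusted p under 0.05, 2 of the 35 were lower and none higher, against 7.86% and 4.1% of all genes. The list's median was -0.10, and within the pairs it was -0.79 for replicate 1, -0.10 for replicate 2 and 0.79 for replicate 3, so the pairs did not share a direction. Bst2, a brightly measured member that tethers budding viruses, had a value of -0.02 (adjusted p = 0.984).

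**Figure D3:**
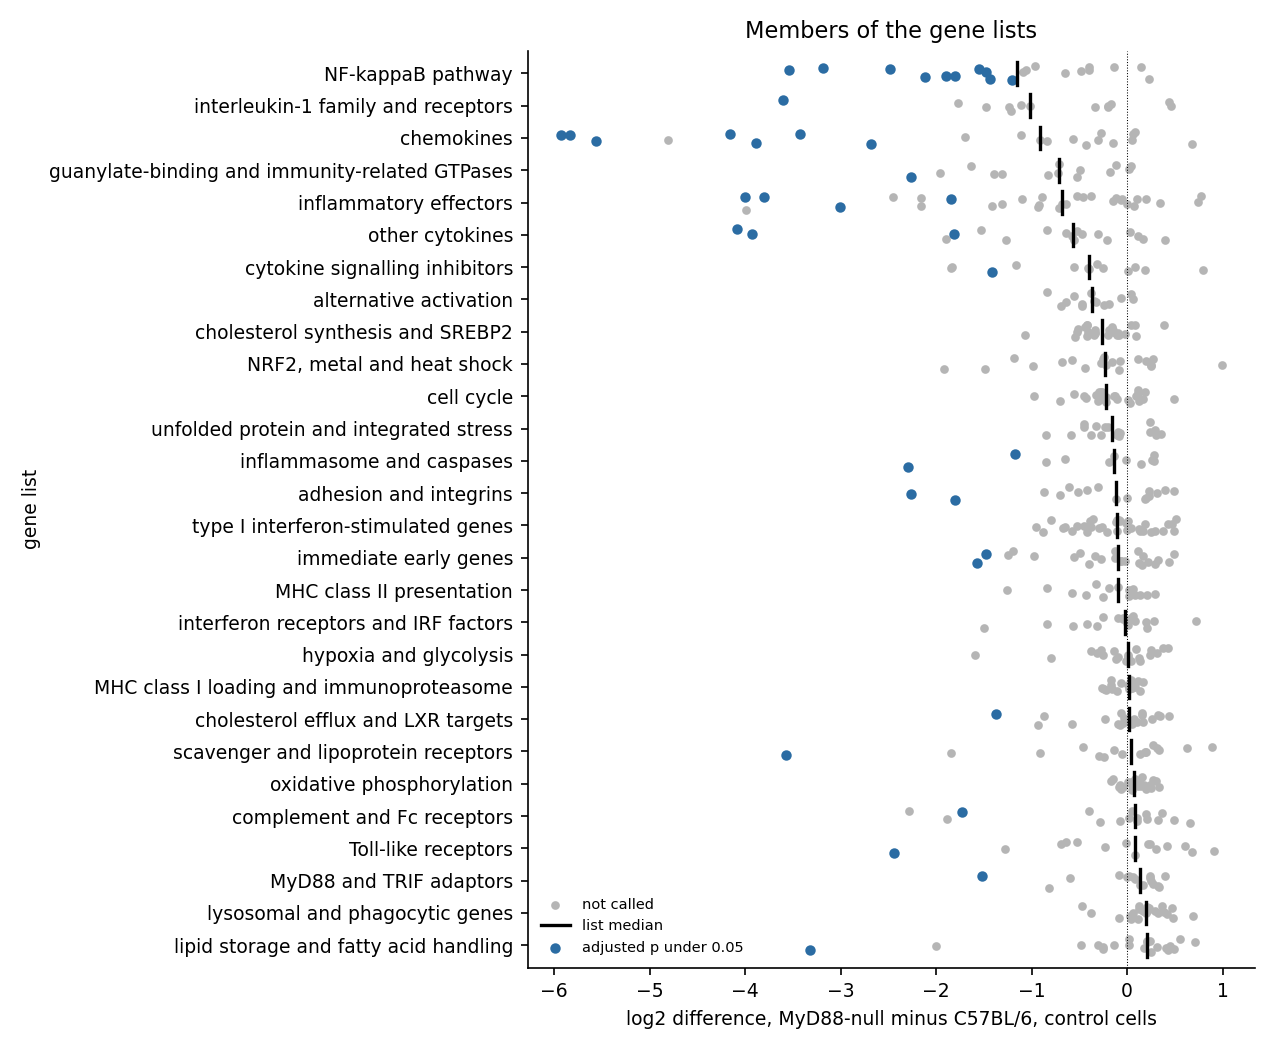
Each row is a gene list and each point a measured member, placed by its log2 difference between MyD88-null and C57BL/6 control cells; blue points passed an adjusted p of 0.05 and the black bar is the list median. NF-kappaB pathway genes have the lowest median, -1.15, and no member of any list was called higher.

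Genes of lipid handling were mostly not called. The exceptions were Ch25h, Olr1 and Scd1. Ch25h, which makes 25-hydroxycholesterol, a ligand of the lipid sensor LXR, read 0.00, 0.33 and 0.12 in C57BL/6 cells and -3.65, -1.90 and -3.96 in null cells. The groups did not overlap, and the difference was -3.32 (SE 0.348, 9.99-fold lower, adjusted p = 0.00536). Olr1, a receptor for oxidised low-density lipoprotein, differed by -3.57 (SE 0.432, adjusted p = 0.0109) and was above background on 1 of 3 null arrays. Scd1, the stearoyl-CoA desaturase, differed by -1.38 (SE 0.168, adjusted p = 0.0111). Olr1 and Scd1 each did not pass in 2 leave-one-out fits. Ch25h, Olr1 and Scd1 were the only calls among 23 lipid storage genes, 16 scavenger and lipoprotein receptors and 22 efflux and LXR target genes. These lists had medians of 0.21, 0.040 and 0.015. The cholesterol transporters Abca1 and Abcg1 had values of -0.88 (adjusted p = 0.197) and 0.34 (adjusted p = 0.426).

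Of the remaining lower genes, some had very narrow replicate spread. Ralgds, an exchange factor for Ral GTPases, read 5.82, 5.78 and 5.79 on C57BL/6 arrays and 3.83, 4.00 and 3.79 on null arrays. Its SD over arrays was 0.0247 in C57BL/6 and 0.11 in null cells, and its difference of -1.92 (SE 0.13, 3.79-fold lower, adjusted p = 0.002) had the lowest p of the lower genes. Ehd1, which acts in endocytic recycling, differed by -2.25 (SE 0.177, adjusted p = 0.00225), and the death receptor gene Fas by -2.11 (SE 0.179, adjusted p = 0.00225). The niacin receptor Hcar2 differed by -3.25 (SE 0.281, adjusted p = 0.00225).

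Fpr2, which encodes a formyl peptide receptor, had a wide spread. It read 3.05, -1.08 and -1.96 on C57BL/6 replicates 1, 2 and 3 and was above background on no null array, and it was at least 30.6-fold lower (adjusted p = 0.0326). Replicate 1 stood far above the other C57BL/6 arrays, and the call was lost in 11 of the 12 leave-one-out fits. Gpr84, a receptor for medium-chain fatty acids, had the same order of arrays (1.31, -1.38 and -1.75 against -4.85, -3.91 and -5.70) and differed by -4.21 (SE 0.694, adjusted p = 0.0422), which 11 leave-one-out fits also lost. Gpr84 was above background on 1 of 3 null arrays.

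Of 16 complement and Fc receptor genes measured, 1 was lower and none higher, with a median of 0.079. This was C3. C3, the central complement component, read 6.11, 7.06 and 6.54 against 4.40, 5.73 and 4.41, a difference of -1.73 (SE 0.212, adjusted p = 0.0114), lost in 2 leave-one-out fits. Saa1, a serum amyloid A, read 6.74, 5.42 and 4.71 against 3.12, 3.78 and 2.84 and differed by -2.38 (SE 0.389, adjusted p = 0.0412), though 11 leave-one-out fits lost the call. Saa genes are near-identical copies, so the signal of this probe may be shared.

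Of 17 adhesion and integrin genes measured of 18, 2 were lower and none higher, with a median of -0.12. These were Icam1 and Vcam1. Vcam1, the adhesion molecule for monocytes and lymphocytes, differed by -2.27 (SE 0.379, adjusted p = 0.0454), and outside that list Pdgfra, a growth factor receptor of fibroblasts, by -2.69 (SE 0.397, adjusted p = 0.0268), each with overlapping groups. The chloride channel regulators Clca3a1 and Clca3a2 differed by -3.82 (SE 0.55, adjusted p = 0.0228) and -3.49 (SE 0.509, adjusted p = 0.0253). The calls of Vcam1, Pdgfra, Clca3a1 and Clca3a2 were lost in 10, 7, 6 and 6 of the 12 leave-one-out fits. In all 4, C57BL/6 replicate 1 was the lowest C57BL/6 array and null replicate 2 the highest null array.

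The 13 mesothelial and fibroblast markers moved with the same arrays. Their summed signal was 72.37, 242.9 and 172.8 on C57BL/6 replicates 1, 2 and 3 and 73.85, 251.1 and 61.38 on null replicates 1, 2 and 3, and all 13 were above background on every control array. Only Pdgfra of them was called. Their part in the results for Vcam1, Pdgfra, Clca3a1, Clca3a2, Ccl2 and Ccl7 was not tested. In the replicate 1 and 2 pairs, whose sums lay close together, Ccl2 differed by -3.87 and -3.12 and Ccl7 by -4.17 and -3.24. In the replicate 3 pair, with the lower sum in null cells, they differed by -4.66 and -5.07. Vcam1 differed by -1.28, -1.90 and -3.61 in replicate pairs 1, 2 and 3, and Pdgfra by -2.275, -1.868 and -3.916.

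The B cell, mast cell, monocyte-derived and resident macrophage marker lists had lower sums in null cells, with ranges that did not overlap. All 8 B cell markers measured of 9 had values below 0 (median -0.57), against 47.4% of all genes, and none was called. Their sum was 21.23 to 32.25 in C57BL/6 and 15.87 to 18.23 in null cells. Beside them, the antibody genes Jchain and Iglv1 were lower, by differences of -3.04 (SE 0.412, adjusted p = 0.0172) and -1.21 (SE 0.185, adjusted p = 0.0296). Jchain and Iglv1 did not pass in 5 and 9 leave-one-out fits. The part of B cell RNA in those results was not tested.

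Mast cell markers summed to 4.377 to 5.593 in C57BL/6 and 2.44 to 4.209 in null cells, with no call among 6 measured of 8. Resident peritoneal macrophage markers summed to 49.18 to 55.46 against 32.95 to 48.58. Of the 9 measured of 12, 6 had values below 0, against 47.4% of all genes. The median of the 9 was -0.33 and the highest value 0.39. Null replicate 3 had the highest null sum, 48.58, but the lowest median level, -1.86. Serpinb2 and Cxcl13 were called, while Gata6, the factor that defines these cells, had a value of -0.78 (adjusted p = 0.394). Monocyte-derived macrophage markers summed to 48.57 to 120.6 against 14.22 to 24.53, with none of 7 measured of 9 called. The brightest of them, the lectin receptor Clec4e, read 6.73, 5.57 and 5.09 against 2.60, 2.78 and 3.94, a value of -2.69 (adjusted p = 0.0926). It made up most of the C57BL/6 sums, and without it, a sum chosen after seeing the data, the other 6 reached 14.1 to 16.58 in C57BL/6 and 8.151 to 12.95 in null cells. What these markers contribute to the chemokine, cytokine and NF-kappaB results was not tested.

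Sums of the other marker lists overlapped between the genotypes. Neutrophil markers, which could bear on the chemokine and effector genes, summed to 1.2 to 1.537 in C57BL/6 and 1.154 to 1.312 in null cells, and Ly6g, Elane, Camp, Ngp and Retnlg were above background on no control array. T cell, dendritic cell, eosinophil, NK cell, and red blood cell and platelet sums ran from 1.347 to 2.333 against 1.273 to 2.505, 0.992 to 3.329 against 0.718 to 2.374, 0.562 to 0.644 against 0.402 to 0.697, 0.055 to 0.0869 against 0.0439 to 0.0621, and 0.296 to 2.26 against 0.727 to 2.328.

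The 11 genes that were higher in MyD88-null cells belong to no pathway list used here. Their number was 3 to 5 without C57BL/6 control replicate 1, 2 or 3, MyD88-null control replicate 1, 2 or 3, or C57BL/6 apoA-I replicate 1 or 2, and 7 without MyD88-null apoA-I replicate 2. Mela, a melanoma antigen gene that comes from an endogenous retrovirus, read -3.79, -4.48 and -4.21 on C57BL/6 arrays and 5.45, 6.70 and 7.03 on null arrays. It was above background on 2 of 3 C57BL/6 arrays, and the difference was 10.55 (SE 0.392, 1500-fold higher, adjusted p = 2.89e-05), which passed in every leave-one-out fit. It was the gene with the lowest p in the comparison.

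A530053G22Rik, an uncharacterised transcript, was above background on all null arrays and on no C57BL/6 array and was at least 2.89-fold higher (adjusted p = 0.0043). It passed in every leave-one-out fit.

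The other named increases were smaller. Slco2b1, an organic anion transporter, differed by 1.69 (SE 0.286, adjusted p = 0.0484), and the costimulatory receptor gene Cd28 by 1.33 (SE 0.197, adjusted p = 0.0268). F13a1, the clotting factor XIII A chain made by macrophages, differed by 1.08 (SE 0.172, adjusted p = 0.0361), and Ramp1, a subunit of the receptor for calcitonin gene-related peptide, by 0.99 (SE 0.133, adjusted p = 0.0169). Rptoros, Kctd12b and Pcp4l1 differed by 1.02, 0.92 and 0.88. The calls of these 7 genes were lost in 7 to 12 of the 12 leave-one-out fits.

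Genes close to the deleted locus were examined by position. Of 270 other genes with a probe within 20 Mb of the Myd88 probe on mm7 chromosome 9, 2 were called (0.741%), against 0.591% of all genes, and both were lower. Limd1, a LIM domain protein of cell junctions, lies 4.22 Mb away (chromosome 9, 123236648 to 123236707) and read 4.01, 3.76 and 3.38 against 2.82, 2.63 and 2.10. Its difference of -1.20 (SE 0.186, adjusted p = 0.0318) was close to equal in the 3 pairs, at -1.19, -1.13 and -1.27. The transcript 0610042G04Rik, 4.63 Mb away (chromosome 9, 123641948 to 123642007), differed by -2.06 (SE 0.207, adjusted p = 0.00479), and passed in every leave-one-out fit, while Limd1 did not pass in 10.

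The same contrast in cells given apoA-I used other arrays. There 38 genes (0.227%) were called, 31 lower (0.185%) and 7 higher (0.0418%) in MyD88-null cells. That count was 5, 7, 7, 9, 13, 19, 21 and 65 without C57BL/6 apoA-I replicate 2, C57BL/6 apoA-I replicate 3, MyD88-null apoA-I replicates 3 and 2, C57BL/6 apoA-I replicate 1, MyD88-null apoA-I replicate 1, and MyD88-null control replicates 1 and 3, in that order. Of the 99 genes called in control cells, 93 had the same sign with apoA-I and 23 were called the same way, which is 23.2% of the control list and 60.5% of the apoA-I list. The difference was smaller with apoA-I for 88 of the 99, and the median of the 88 lower genes was -2.10 in control cells and -1.18 with apoA-I. Since the 99 were chosen on the control difference, the smaller values are a description. The interaction over all genes gave no call with limma (lowest adjusted p = 0.0819), with 1233 genes (7.36%) at an unadjusted p under 0.05.

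NF-kappaB inhibitors were among the genes with no genotype call under apoA-I. Nfkbie read 4.60, 5.10 and 4.56 in C57BL/6 and 4.57, 5.34 and 4.58 in null cells given apoA-I, a value of 0.08 (adjusted p = 0.89) beside the -3.18 of control cells. Nfkbia gave 0.10 (adjusted p = 0.91) with apoA-I, beside -2.48. Groups that were apart in control cells overlapped here. The unadjusted p of the interaction was 5.72e-06 for Nfkbie and 0.000579 for Nfkbia, and neither passed over all genes. For the NF-kappaB list as a whole the median was -0.32 with apoA-I, and 1 of 20 members was lower.

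Acod1, Cxcl10 and Tlr2 had values of -0.41, 0.68 and -0.41 with apoA-I (adjusted p 0.72, 0.513 and 0.476), beside control differences of -4.003, -3.43 and -2.45. Other genes were called lower under both conditions. Tnf differed by -3.12 with apoA-I (SE 0.31, adjusted p = 0.0099), Il1b by -3.32 (SE 0.297, adjusted p = 0.00562), Csf3 by -4.40 (SE 0.334, adjusted p = 0.00352) and Nfkbiz by -3.14 (SE 0.384, adjusted p = 0.0215). Mela was called higher under both, with an apoA-I difference of 10.95 (SE 0.392, adjusted p = 2.12e-05). A530053G22Rik, at 0.13 with apoA-I (adjusted p = 0.882), was not.

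**Figure D4:**
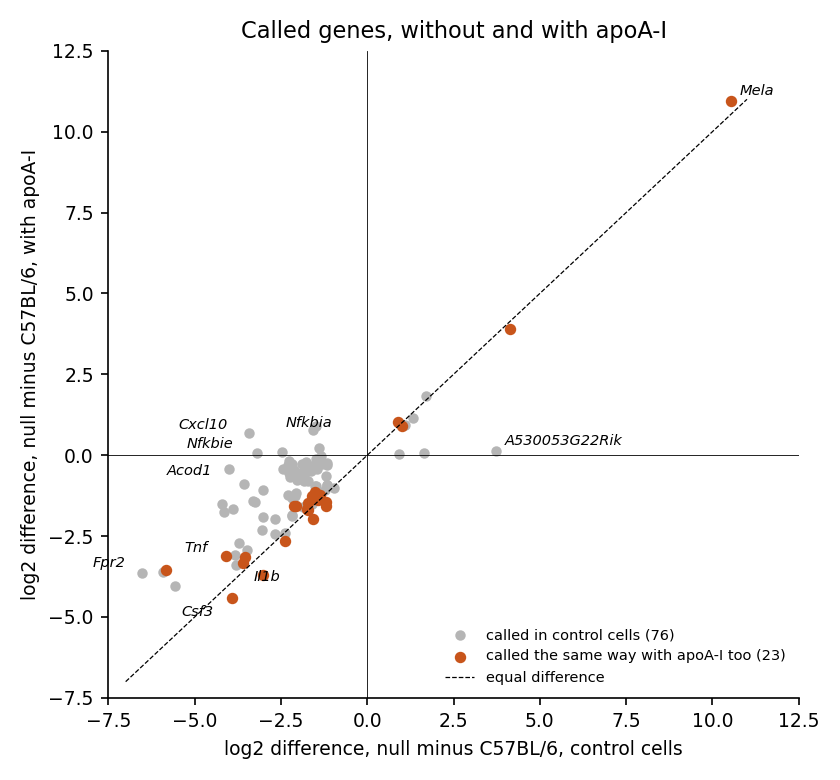
Each point is 1 of the 99 genes called in control cells, with its log2 genotype difference in control cells on the horizontal axis and with apoA-I on the vertical axis; the dashed line marks equal differences. Of the 23 genes called the same way with apoA-I (orange), Mela reaches 10.95 on the vertical axis, while Nfkbie, Nfkbia and A530053G22Rik, at 0.08, 0.10 and 0.13, were not called there.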

How the data were processed

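Total RNA of 12 samples was measured on one-colour arrays, and this account uses the 6 control arrays, with the 6 apoA-I arrays in the same model. The authors deposited scanner output with an intensity for each spot. Agilent Feature Extraction was version 9.5 per the submitters' processing notes, with 9.5.1.1 and 9.5.3.1 in the headers. Per the header parameters, the processed intensity is the Cy3 signal after background subtraction and detrending within an array, not scaled between arrays. A deposited table of log10 values tracks each array's processed intensity (correlations of 0.99257 to 0.99974, from which the log10 scale was read). Its direction is that of a single colour, while its normalization and centring stay unknown. Its column medians for replicates 1, 2 and 3 were 1.8435, 1.8408 and 1.8283 (C57BL/6 control), 1.8402, 1.841 and 1.8346 (C57BL/6 apoA-I), 1.8386, 1.8676 and 1.8435 (MyD88-null control), and 1.8333, 1.846 and 1.8225 (MyD88-null apoA-I).

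Log2 values were computed from the deposited intensities by taking log2 of that intensity and subtracting the 75th percentile of each array. Control and outlier spots were left out, saturated spots kept (at most 6 on an array), and repeated spots averaged. A probe was kept where 1 or more of the 4 groups had it well above background on every array (24350 of 41174), and the brightest probe of each gene was used (16744 genes). Of 27 called genes with several probes, all probes had the same direction, and in 9 all passed. For example, second probes of C3, Pdgfb, Mmp9, Pdgfra, Fpr2 and Vcam1 did not pass. Their adjusted p among probes with limma was 0.125, 0.145, 0.135, 0.356, 0.0725 and 0.0566. Names came from RefSeq's GRCm38.p6 by accession (22951 probes), another RefSeq accession (124), current symbol (6582) or unique synonym (3077), with 8440 keeping the file's name. Coordinates are those of the array files, build mm7.

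All 12 arrays were fitted together, with 4 group means and the replicate number as a block, with limma 3.58.1 in R 4.3.3, with 6 residual and 2.45 prior degrees of freedom. P-values are two-sided, adjusted by Benjamini-Hochberg over all genes. SE is the standard error of a difference and SD that over 3 arrays. The pairing was checked by the correlation of deviations from group means between control arrays: 0.54, 0.30 and 0.64 for the same replicate number, -0.67 to 0.40 for different numbers. Deviations cancel within a group, so these values are not independent of each other. C57BL/6 replicate 2 correlated at 0.40 with null replicate 1 and at 0.30 with null replicate 2. Pairs 1 and 3 each shared a scan day, so pairing and batch cannot be told apart there. The labels give the replicate numbers and the series' design speaks of replicate experiments of 4 samples each. Where no array of a group had a gene above background, the fold is a bound: the mean of the brighter group over that of, on each dim array, the lowest value of any probe above background or the gene's own value if higher.

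Members and the 40 gene lists were chosen with earlier results of these data known. The naming rule took Myd88, the 15 largest increases and decreases and the 5 largest bounds in each direction among called genes with a RefSeq symbol, up to 6 called members of a list (or its 2 brightest members where none was called), and up to 8 called genes near Myd88. Other genes (Mela, Relb, Nfkb2, Tnfaip3, Traf1, Hcar2, Fas, Ralgds, Ehd1, Saa1, Jchain, Iglv1 and uncalled list members) were named after their values were seen. Values of some genes taken by the rule are not reported here. Alternatives were quantile normalization, median centring, normexp background correction (offset 50), the deposited table, other filters, blocks and variance models, every probe on its own, the 2 conflicting descriptions, and each array left out. The fit was also run on simulated data with independent noise on each array and the same replicate block. These data held no separate slide or scan-day effect, so they cannot show how such effects bear on the calls.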

Additional observations from a re-analysis of the deposited data

How the results depend on the processing

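The call counts depended on how the spread was modelled, while all 99 genes, or all 98 that were measured with a filter on the control groups, kept their direction in each of the 26 other fits. Without the replicate number as a block, that is, without the pairing, 16 genes were called in control cells (13 lower, 3 higher), 11 with apoA-I, 0 near Myd88, 2 of the NF-kappaB list and 1 chemokine, and Myd88 kept its difference of -1.521 at an adjusted p of 0.215. With the 6 control arrays alone, in the same block, limma called 0 genes (0 lower, 0 higher, 1858 at an unadjusted p under 0.05), 0 near Myd88, 0 of the NF-kappaB list and 0 chemokines, with Myd88 at -1.521 (adjusted p = 0.278). With the slide as the block there were 2 calls (Jchain lower, 1, and Mela higher, 1), with 846 genes at an unadjusted p under 0.05, 0 near Myd88, 0 of the NF-kappaB list and 0 chemokines, and Myd88 was at -1.367 (adjusted p = 0.232). With the scan day as the block there were 22 (19 lower, 3 higher), 1 near Myd88, 3 of the NF-kappaB list and 1 chemokine. Median centring gave 61 (52 lower), 1 near Myd88 and 5 of the NF-kappaB list, moved the median of all genes to 0.24, and put Myd88 at -1.30 (adjusted p = 0.117). No filter on dim probes, which tests more genes, gave 45 (42 lower, 3 higher), 10 with apoA-I, 1 near Myd88 and 6 of the NF-kappaB list. Taking treatment from the descriptions gave 1 call (0 lower, 1 higher), 0 near Myd88, 0 of the NF-kappaB list and 0 chemokines, with 835 genes at an unadjusted p under 0.05 and Myd88 at -1.351 (adjusted p = 0.927). Leaving both conflicting samples out gave 9 (8 lower, 1 higher), 0 near Myd88, 1 of the NF-kappaB list and 3 chemokines, with Myd88 at -1.593 (adjusted p = 0.0676). Quantile normalization called 3 genes in the interaction (Edn1, Il12b and Nfkbie). With each array left out in turn, calls ran from 39 to 109 (35 to 95 lower, 3 to 14 higher), from 5 to 65 with apoA-I, from 0 to 1 in the interaction, from 1 to 2 near Myd88, from 4 to 9 in the NF-kappaB list and from 3 to 7 among chemokines, and Myd88 from -1.612 to -1.474. The cause of these shifts was not tested, apart from the fewer arrays or more genes that some fits hold by construction. The share of lower genes among those called was 85.2% to 89.2% over the scalings tried. The number of arrays limits the precision, and signal near background limits Fpr2, Cxcl2, Csf3, Il1b, Lcn2 and A530053G22Rik to bounds. Signal near background also enters other fitted differences. Gpr84 and Olr1 were above background on 1 of 3 null arrays, and Cxcl1, Cxcl5, Cxcl10, Hcar2, Gbp6 and Jchain on 2.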

Other observations

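Several other gene lists, named here, gave no call with limma, and their medians are given as a description. Over all genes tested, 47.4% had values below 0. At an unadjusted p under 0.05 with limma, 7.86% of all genes were lower and 4.1% higher. Of 24 lysosomal and phagocytic genes measured of 25, 21 had values above 0 (median 0.20), and 5 were higher at an unadjusted p under 0.05. Examples are the lysosomal membrane protein Lamp2, with a value of 0.47 (SE 0.133, adjusted p = 0.237), and Mertk, a receptor for apoptotic cells, with 0.69 (SE 0.206, adjusted p = 0.267). Of 26 cholesterol synthesis and SREBP2 target genes, 22 had values below 0 (median -0.27), and 3 were lower at an unadjusted p under 0.05. The median of this list was -0.29, -0.40 and 0.0053 in replicate pairs 1, 2 and 3.

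Alternative activation genes, which mark macrophages exposed to interleukin-4, had 12 of 14 measured values below 0 and a median of -0.36. Tgm2, a transglutaminase, had -0.70 (SE 0.166, adjusted p = 0.158), and Arg1, the arginase, -0.64 (SE 0.243, adjusted p = 0.363). Of 15 class II presentation genes, 8 had values below 0 (median -0.093). Their lowest values were those of the costimulatory receptor Cd40, at -1.26 (SE 0.275, adjusted p = 0.126), and of the class II transactivator Ciita, at -0.84 (SE 0.2, adjusted p = 0.157). Respiratory chain, class I presentation and glycolysis genes had medians of 0.074, 0.015 and 0.013, and limma called none of the 24, 18 and 21 measured. At an unadjusted p under 0.05, none of the first and second of these lists and 3 of the third were lower, and none was higher. The lists for cell cycle, for NRF2, metal and heat shock, for unfolded protein and integrated stress, and for interferon receptors and IRF factors, also without a call, had medians of -0.22, -0.23, -0.15 and -0.023. At an unadjusted p under 0.05 they held 2, 5, 3 and 5 lower genes and 0, 1, 0 and 1 higher genes.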
